A study of Mus musculus with 11 samples.

Results

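Dtx1 and 5 genes of the Notch pathway, Notch1, Notch2, Rbpj, Hes1 and Maml1, are described here across regulatory T cells (Tregs) of mouse spleen and MC38 tumor. They are 6 of the 14604 genes listed in the deposited values. The genes were chosen by Dtx1, because Dtx1 had the largest fall of mean value from the spleen to the tumor libraries, and the other 5 were taken with it as genes of the same pathway. The tumor and spleen values of the 6 genes are therefore given as a description, without a test. Their values by genotype, and the tumor and spleen values of other pathway genes, were not used in that choice and were tested. The lists of other pathway genes were, however, drawn up with earlier results of these data known.

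RNA was sequenced from live CD4+GITR+CD25+ cells sorted as Tregs from MC38 tumors and from the spleens of the same tumor-bearing mice. All mice had been implanted with MC38, a colon adenocarcinoma line of mouse origin, and all carried the CD177flox/flox allele. The wild-type (WT) groups, 3 spleen and 3 tumor libraries, had CD177flox/flox alone. The knockout (KO) groups, 3 spleen and 2 tumor libraries, had CD177flox/flox/FOXP3-CreYFP, in which Cre and a yellow fluorescent protein follow the Foxp3 gene that marks Tregs. The WT mice lacked the Cre transgene, so the deletion and the transgene cannot be told apart, and Cd177 is not listed among the values, so the genotype could not be checked from it. The methods give an age range for the C57BL/6 mice implanted with MC38 but none for these genotypes by name, and they do not state whether a library came from 1 mouse or a pool. If the libraries of a group do not come from separate mice, p-values measure only the spread between these libraries, which may be technical.

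Notch receptors are surface proteins that are cut after they bind a Delta or Jagged ligand on a neighbouring cell. The freed intracellular part enters the nucleus, joins the DNA-binding protein RBPJ and a Mastermind protein such as MAML1, and switches on targets such as Hes1, which encodes a transcriptional repressor. In T cells the pathway is best known for the commitment of thymic precursors to the T lineage. Dtx1 encodes Deltex1, an E3 ubiquitin ligase that binds the intracellular part of Notch, is itself a known Notch target, and has been linked to T cell anergy and Treg stability.

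The start regions of Dtx1 and Rbpj are shown because these genes had the largest fall and the largest rise among the 6 as deposited. The bases are the 250 upstream of an annotated RefSeq start on GRCm38.p6, written 5′ to 3′ on the gene's strand, and capitals mark matches to TGGGAA or its reverse complement, the core of the sequence that RBPJ binds. The Dtx1 stretch is chr5:120711670-120711919 on the minus strand. The Rbpj stretch is chr5:53590096-53590345 on the plus strand, upstream of 1 of its starts. Both stretches lie inside the longest annotated extent of their gene, which for Dtx1 begins at 120711927 on its strand.
Dtx1: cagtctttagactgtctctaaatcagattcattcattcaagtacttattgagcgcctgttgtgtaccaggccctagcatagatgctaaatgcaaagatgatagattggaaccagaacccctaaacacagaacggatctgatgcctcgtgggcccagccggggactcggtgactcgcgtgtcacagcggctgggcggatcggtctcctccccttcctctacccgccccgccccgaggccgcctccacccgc
Rbpj: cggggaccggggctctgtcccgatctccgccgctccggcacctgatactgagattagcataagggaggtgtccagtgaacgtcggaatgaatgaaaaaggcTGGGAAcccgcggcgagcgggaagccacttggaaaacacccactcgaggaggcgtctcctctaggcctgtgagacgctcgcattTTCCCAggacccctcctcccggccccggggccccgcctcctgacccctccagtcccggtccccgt
The Dtx1 stretch held no match and the Rbpj stretch held 2. The first lay on the gene's strand 149 to 144 bases before the start, and the second lay on the other strand 65 to 60 bases before it. An overlapping stretch before another Rbpj start, chr5:53590236-53590485, held 1 match. It is the second of these sites, on the other strand 205 to 200 bases before that start. The stretches of Notch1, Notch2 and Maml1 held no match, and 21.6% of the 32851 RefSeq promoter stretches of this length had at least 1. The letters were searched on both strands, and a match describes the sequence only.

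The Dtx1 gene spans chromosome 5, minus strand, from 120680202 to 120711927 (GRCm38, the same build as mm10), and GENCODE M21 places no other gene's exons over its own. It does place exons of other genes over those of Notch1 and Maml1 on the opposite strand, and over those of Notch2 on the same strand. All values below are on the deposited scale, log2(n + 1), where n is an estimated count summed over the transcripts of a gene symbol. In WT spleen Tregs the Dtx1 level was 7.07, 7.08 and 6.89 in the 3 libraries, and in KO spleen Tregs it was 7.04, 6.72 and 6.93. In the tumor libraries, sorted as tumor-infiltrating Tregs, it was 1.32, 1.36 and 0.94 in WT and 2.35 and 0.98 in KO. All 5 tumor libraries lay below all 6 spleen libraries, and the gap between the lowest spleen and the highest tumor library was far wider than the range within either tissue.

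Dtx1 averaged 6.95 ± 0.14 (SD, n = 6) over the spleen libraries and 1.39 ± 0.57 (SD, n = 5) over the tumor libraries, which differed by -5.56 (standard error 0.21). Taken back to n, the mean was 123.5 in spleen and 1.81 in tumor, so the spleen mean was 68.1 times the tumor mean. The study's methods give an approximate sequencing depth but not how n relates to reads, and a value of n this low in tumor makes the log2 difference depend on the added 1. With 0.1 added in place of 1 it was -6.22, and with 5 added it was -4.25. With each library left out in turn it stayed between -5.80 and -5.45. The genes just behind Dtx1 in the size of the fall were Gm4956, from 5.92 to 0.77 (-5.15), Nsg2, from 6.34 to 1.97 (-4.37), and Gpr83, a receptor gene known from Tregs, from 5.06 to 0.74 (-4.32).

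**Figure D1:**
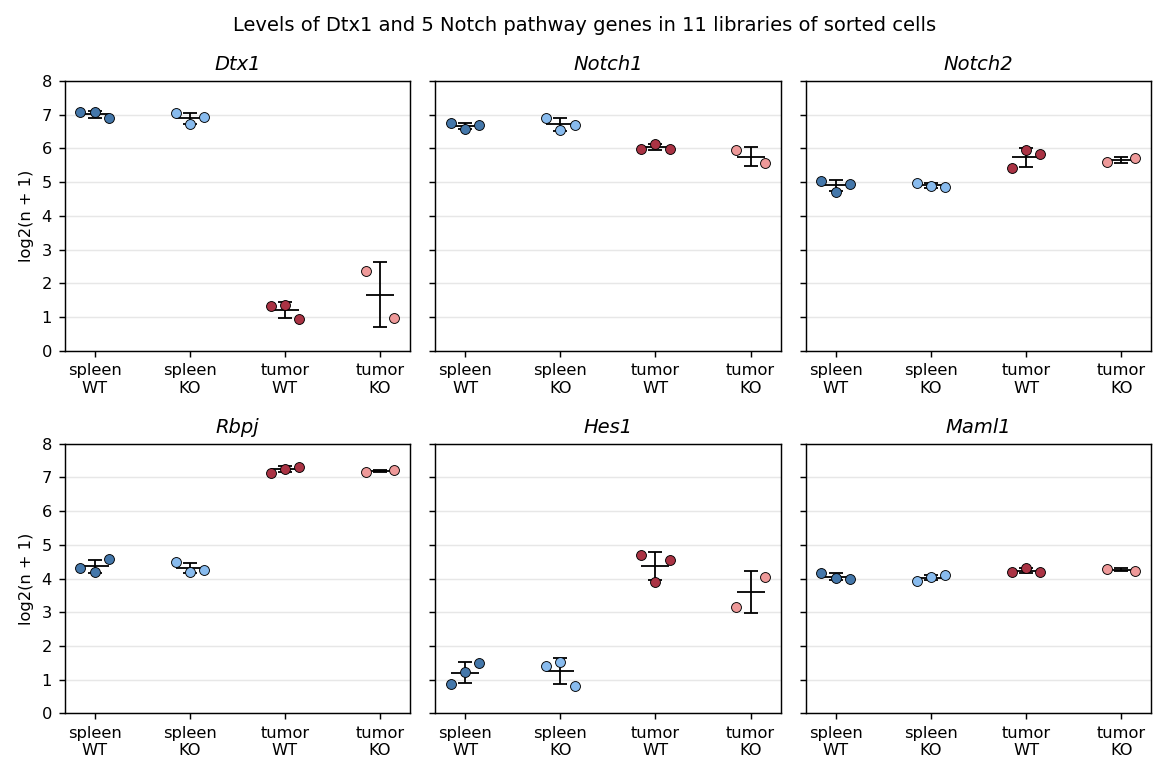
Level of each of the 6 genes in log2(n + 1) on the vertical axis, by tissue and genotype (spleen WT n = 3, spleen KO n = 3, tumor WT n = 3, tumor KO n = 2). Points are libraries, long dashes the group means and bars 1 SD, and Dtx1 is near 7 in spleen and between 0.94 and 2.35 in tumor while Rbpj and Hes1 are higher in tumor.

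Among the receptors, Notch1 and Notch2 went in opposite directions. Notch1, the receptor best known from T cell development, is on chromosome 2 from 26457903 to 26516663 on the minus strand. Its level was 6.76, 6.58 and 6.69 in WT spleen and 6.90, 6.55 and 6.68 in KO spleen, against 5.99, 6.14 and 5.99 in WT tumor and 5.95 and 5.56 in KO tumor. Every tumor library was below every spleen library, and the mean went from 6.69 ± 0.13 (SD, n = 6) to 5.93 ± 0.22 (SD, n = 5), a difference of -0.77 (standard error 0.099). Notch2, a receptor also used by B cells and myeloid cells, is on chromosome 3 from 98013527 to 98150361 on the plus strand. Its level was 5.04, 4.72 and 4.96 in WT spleen and 4.97, 4.89 and 4.85 in KO spleen, against 5.42, 5.96 and 5.83 in WT tumor and 5.60 and 5.72 in KO tumor. The tissues did not overlap here either, and the mean went from 4.90 ± 0.11 (SD, n = 6) to 5.70 ± 0.21 (SD, n = 5), a difference of 0.80 (standard error 0.095).

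A common scaling factor of a library nearly cancels in the difference between 2 genes of that library. The Notch2 level minus the Notch1 level was between -1.93 and -1.66 in the 6 spleen libraries and between -0.57 and 0.16 in the 5 tumor libraries. Its mean rose by 1.57 from spleen to tumor, and the 2 ranges did not touch. This is a shift of one difference and does not compare the amounts of the 2 transcripts, which differ in length.

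Rbpj, the DNA-binding partner of the Notch intracellular part, is on chromosome 5 from 53466152 to 53657362 on the plus strand. Its level was 4.31, 4.20 and 4.58 in WT spleen and 4.48, 4.19 and 4.25 in KO spleen, against 7.14, 7.26 and 7.31 in WT tumor and 7.17 and 7.22 in KO tumor. The tumor libraries were tightly grouped, and all lay above all spleen libraries. The mean went from 4.33 ± 0.16 (SD, n = 6) to 7.22 ± 0.07 (SD, n = 5), a difference of 2.89 (standard error 0.079), and the mean n was 7.69 times as high in tumor. Rbpj had the 553rd largest rise of the 14604 genes. Of the 31-base stretches of its annotated transcripts, 11.8% also occur in transcripts of other genes, and how much of its signal came from such stretches was not tested. The same share was 9.4% for Notch1, 4.28% for Notch2, 1.92% for Maml1, 1.28% for Dtx1 and 0% for Hes1, and its part in their signal was not tested either.

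Maml1, the Mastermind coactivator, is on chromosome 11 from 50255634 to 50292311 on the minus strand and differed least between the tissues. Its level was 4.17, 4.01 and 4.001 in WT spleen and 3.94, 4.05 and 4.11 in KO spleen, against 4.18, 4.32 and 4.20 in WT tumor and 4.30 and 4.23 in KO tumor. The lowest tumor library was only just above the highest spleen library. The mean went from 4.05 ± 0.08 (SD, n = 6) to 4.24 ± 0.06 (SD, n = 5), a difference of 0.20 (standard error 0.065), whose sign turned under other scalings (-0.034 with quantile normalization and -0.39 with equal library totals). The Rbpj level minus the Maml1 level averaged 0.29 ± 0.21 (SD, n = 6) over the spleen and 2.98 ± 0.09 (SD, n = 5) over the tumor libraries.

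Hes1, like Dtx1 a known target of the pathway, is on chromosome 16 from 30064384 to 30067796 on the plus strand. Its level was 0.88, 1.23 and 1.501 in WT spleen and 1.40, 1.54 and 0.82 in KO spleen, against 4.69, 3.91 and 4.55 in WT tumor and 3.15 and 4.04 in KO tumor. Values were low in all spleen libraries, the tumor libraries were spread over more than 1 log2 unit, and the tissues did not overlap. The mean went from 1.23 ± 0.31 (SD, n = 6) to 4.07 ± 0.61 (SD, n = 5), a difference of 2.84 (standard error 0.25), and the mean n went from 1.39 to 16.9. Hes1 had the 572nd largest rise. No overlap between tissues, seen for all 6 genes, was common, as 63.5% of the 13897 genes tested had none.

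The direction of the smaller differences depended on how libraries were scaled. The median difference over all tested genes was 0.08 as deposited, -0.16 with quantile normalization, -0.14 with median centring and -0.44 with equal library totals. It was 0.91 after each library was centred on a list of 18 T-cell lineage genes. Across these scalings Dtx1 stayed between -6.05 and -4.73, Rbpj between 2.27 and 3.72, Hes1 between 2.36 and 3.67 and Notch2 between 0.19 and 1.63. Notch1 was between -1.39 and -0.77 under the first 4 and at 0.061 with T-cell lineage centring, and Maml1 was above 0 as deposited and with T-cell lineage centring (1.03) alone.

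**Figure D2:**
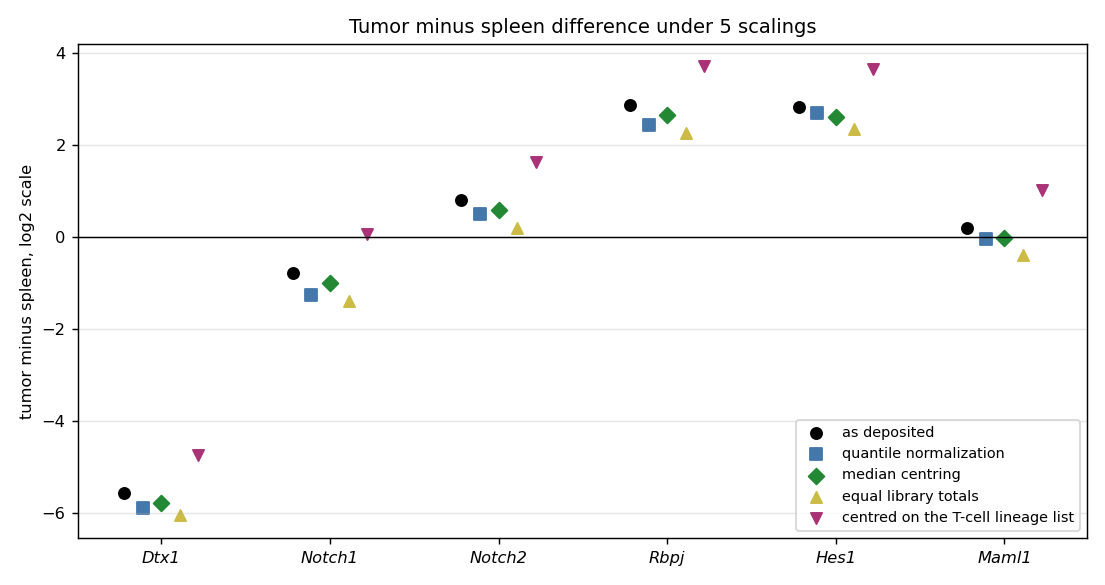
Tumor minus spleen difference of the mean on the log2 scale (vertical axis) for each of the 6 genes (horizontal axis), with 1 symbol per scaling. Dtx1 stays below -4.7 and Rbpj and Hes1 above 2.2 in all 5, while Notch1 and Maml1 lie on both sides of 0.

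Markers of other cell types moved with the tissue. All 16 tested genes of a myeloid list were higher in tumor, and the summed level of the list was 7.68 to 8.93 in spleen and 13.54 to 14.08 in tumor libraries. Lyz2, the macrophage lysozyme, went from 4.75 to 12.35. Of 6 fibroblast genes 5 were higher, and that list's summed level was 1.84 to 2.18 in spleen and 8.95 to 10.02 in tumor. Of 18 T-cell lineage genes 16 were lower and none higher, with a summed level of 12.12 to 12.26 in spleen and 10.97 to 11.84 in tumor. Foxp3, which defines Tregs, averaged 6.35 ± 0.30 (SD, n = 6) over the spleen and 5.50 ± 0.55 (SD, n = 5) over the tumor libraries, and Cd4 was 7.72 and 7.30. B cells can also express Dtx1. The summed level of a B cell list was 4.30 to 6.04 in spleen and 4.08 to 4.87 in tumor. Of 10 Treg genes 2 were higher and 6 lower, and of 10 CD8 T and NK genes 7 and 1. Of 8 marginal zone B cell genes 5 were higher (Cd9, Plac8, Tm6sf1, Myof and S1pr3) and 3 lower (Cr2, Cd1d1 and Fcer2a). Of 7 B cell genes 1 was higher and 3 lower, of 6 endothelial genes 2 and 2, and of 3 epithelial genes 1 and 0. Over all tested genes 43.1% were higher and 35.9% lower. The part of these other cells in the values of the 6 genes was not tested, and in bulk RNA fewer cells of a type and less RNA per cell cannot be told apart. After T-cell lineage centring the Dtx1 difference was -4.73.

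The highest Dtx1 level in tumor, 2.35, was in KO replicate 1. That library also had the highest summed B cell level of the tumor libraries (4.87, others 4.08 to 4.72) and the lowest Hes1 level (3.15). Its summed Treg level was the highest of the tumor libraries too (10.39, others 9.59 to 10.13), and its summed T-cell lineage level (11.60) was second to that of WT replicate 1 (11.84), where Dtx1 was 1.32. Among the spleen libraries, KO replicate 2 had the highest summed B cell level (6.04, others 4.30 to 4.96) and the lowest Dtx1 level (6.72). The part of B cells in the Dtx1 values was not tested.

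The other Deltex genes encode ligases related to Deltex1, and none of the 4 had a difference near that of Dtx1. Dtx3 was 4.99 ± 0.20 (SD, n = 6) in the spleen and 4.46 ± 0.39 (SD, n = 5) in the tumor libraries. It was lower by limma with Benjamini-Hochberg adjustment over the 13897 genes (difference -0.52, adjusted p = 0.0094). Dtx2 was lower by the same test (3.81 to 3.59, difference -0.22, adjusted p = 0.037), but the call was lost in 7 of the 11 fits that left out 1 library, with differences from -0.26 to -0.17 over all 11. Dtx4 was higher (2.50 to 2.89, difference 0.39, adjusted p = 0.0062), and Dtx3l, the partner of the PARP9 protein in DNA damage and interferon responses, was 5.44 in spleen and 5.36 in tumor and was not called (adjusted p = 0.31). Only Dtx4 of these 4 separated the tissues library by library. With T-cell lineage centring Dtx2 was called higher (0.61), and Dtx3 turned positive without a call (0.30). Dtx4 was not called with quantile normalization (0.14) or median centring (0.17) and was -0.14 with equal library totals. Dtx3l was called lower with quantile normalization (-0.39), median centring (-0.30) and equal library totals (-0.70), and higher with T-cell lineage centring (0.75).

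Within a library, the Dtx1 level minus that of Dtx2 was between 2.94 and 3.28 in spleen and between -2.75 and -1.06 in tumor. The same difference fell by 5.04 against Dtx3, by 5.48 against Dtx3l and by 5.95 against Dtx4 from the spleen to the tumor mean. The comparison of Dtx1 with them is a description, since Dtx1 was selected on this contrast.

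**Figure D3:**
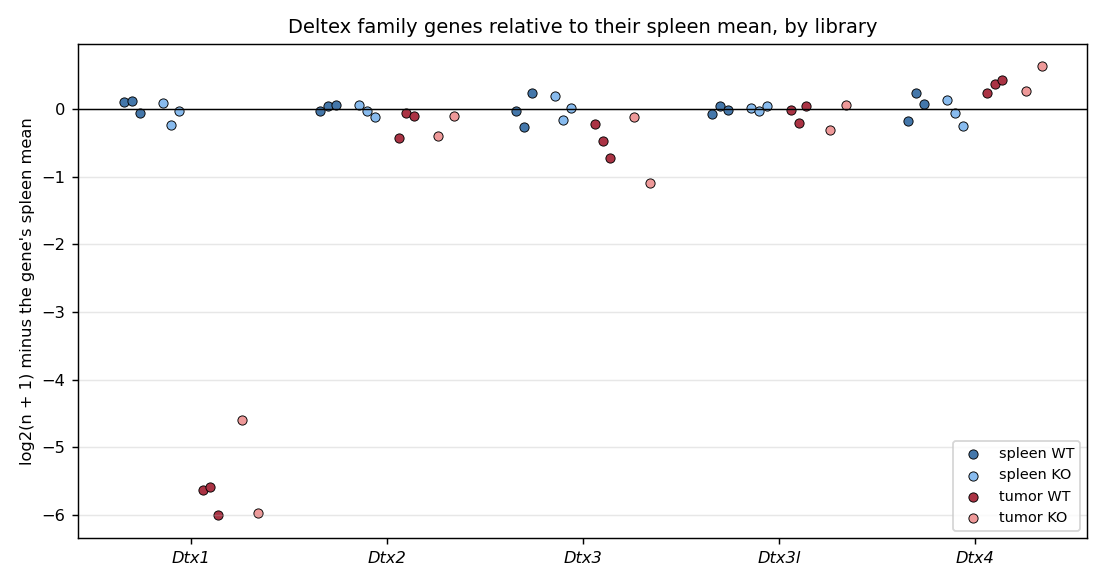
Level of each Deltex family gene minus its own spleen mean, in log2(n + 1) (vertical axis), with 1 point per library and colors for tissue and genotype. The tumor points of Dtx1 lie between -6.01 and -4.60, and those of Dtx2, Dtx3, Dtx3l and Dtx4 lie between -1.09 and 0.63.

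Of the 72 other genes in 10 lists of the Notch pathway, 67 were listed and 65 could be tested. Dll4, Hes5, Hey1, Hey2 and Heyl were not listed, and Notch3 and Dlk1 were below the minimum mean level of 0.5. By limma with adjustment over all tested genes, 22 of the 65 were higher in tumor and 32 lower, against 43.1% and 35.9% of all tested genes. The median difference of the 65 was -0.18, against 0.08 over all tested genes. The split moved with the scaling, to 17 higher and 39 lower with quantile normalization, 11 and 44 with equal library totals, and 38 and 2 with T-cell lineage centring, where the 2 lower genes were Mfng and Tcf7. Over all tested genes, the share of calls that were higher was 54.5% as deposited, 42.1% with quantile normalization, 43.7% with median centring, 29.6% with equal library totals and 90.2% with T-cell lineage centring.

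Of the 10 genes for the proteases and gamma-secretase subunits that cut Notch and its precursor, 9 were higher and none lower as deposited, with a median difference of 0.89. Furin, the convertase that cleaves the Notch precursor, rose from 4.98 ± 0.23 (SD, n = 6) to 7.67 ± 0.29 (SD, n = 5), a difference of 2.69 (adjusted p = 2.18e-09). Aph1c and Aph1a, which encode scaffold subunits of gamma-secretase, rose by 2.68 (adjusted p = 1.22e-08) and 1.30 (adjusted p = 8.90e-08). The surface proteases Adam17 and Adam10 rose by 1.09 (adjusted p = 1.41e-08) and 0.57 (adjusted p = 1.84e-06). With equal library totals 5 of the 10 were higher and 1 lower, and Adam10 was at -0.049. These genes are expressed by many cell types, and their change stood beside that of the myeloid list, whose part was not tested.

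Of 4 tested ligands, Jag1 alone was higher by limma (difference 3.82, adjusted p = 2.57e-09). It was 1.004 ± 0.21 (SD, n = 6) in the spleen and 4.82 ± 0.51 (SD, n = 5) in the tumor libraries. Dll3 was lower at low levels (1.33 to 0.45, difference -0.88, adjusted p = 0.0040), and 2 were not called. Of the receptors outside the 6, Notch4, known from endothelium, went from 2.23 to 1.60 (difference -0.63, adjusted p = 0.034), with overlapping libraries and a call lost in 6 of the fits that left out 1 library (-0.78 to -0.49 over all 11). The fibroblast list, with a summed level at least 8.95 in tumor libraries, and the myeloid list moved in the direction of Jag1, and their part was not tested.

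Of 5 genes for the enzymes that put sugars on Notch, 3 were lower and 1 higher as deposited, 5 and 0 with equal library totals, and 1 and 2 with T-cell lineage centring. Mfng, the Manic Fringe glycosyltransferase, fell from 5.95 ± 0.12 (SD, n = 6) to 4.22 ± 0.27 (SD, n = 5), a difference of -1.72 (adjusted p = 1.68e-08), and was lower under each scaling. Of 10 genes for endocytosis and turnover of Notch or its ligands, 4 were higher and 4 lower. Nedd4, an E3 ubiquitin ligase, rose by 2.15 (adjusted p = 1.19e-05), Neurl1b, a ligase for Notch ligands, by 1.72 (adjusted p = 1.64e-07), and Numbl, a relative of the Notch inhibitor Numb, by 1.67 (adjusted p = 1.52e-06).

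Among the nuclear partners, of the 10 other genes of the activation complex 3 were higher and 6 lower as deposited, and 5 and 0 with T-cell lineage centring. Maml2, a second Mastermind gene, was lower (difference -0.64, adjusted p = 0.00013), as was the acetyltransferase gene Kat2b (difference -0.79, adjusted p = 2.31e-05). Of 12 corepressor genes, which act with RBPJ when Notch is off, 8 were lower and 3 higher as deposited, 10 and 1 with equal library totals, and 0 and 6 with T-cell lineage centring. Ctbp2 rose from 1.93 to 4.84 (difference 2.92, adjusted p = 4.39e-09), whereas L3mbtl3 (difference -1.07, adjusted p = 3.60e-07), the histone demethylase gene Kdm5a (difference -1.04, adjusted p = 6.51e-08) and Ncor1 (difference -0.90, adjusted p = 1.24e-07) fell. Kat2b and Maml2 were at 0.038 and 0.19 with T-cell lineage centring.

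No other Notch target tested was called higher as deposited, and 3 were with T-cell lineage centring. Both tested genes of the Hes1 family were lower, Hes6 from 4.04 to 3.74 (difference -0.30, adjusted p = 0.0058) and Hes7 from 1.37 to 0.77 (difference -0.60, adjusted p = 4.0e-04). Of 7 further targets 5 were lower and none was higher. Tcf7, the T cell factor 1 gene, fell from 7.71 ± 0.14 (SD, n = 6) to 3.99 ± 0.52 (SD, n = 5), a difference of -3.72 (adjusted p = 1.91e-09). Ptcra, the pre-T cell receptor alpha gene, fell by 1.10 (adjusted p = 1.37e-06), Igf1r by 0.99 (adjusted p = 3.80e-05) and Nrarp, a feedback inhibitor of Notch, by 0.58 (adjusted p = 0.012). Il2ra, which encodes the CD25 protein used in the sort, was 7.26 in spleen and 6.996 in tumor and was not called (adjusted p = 0.12). It was called lower with quantile normalization (-0.93), median centring (-0.48), equal library totals (-0.89), WT libraries alone (-0.47) and without tumor KO replicate 1 (-0.40). With T-cell lineage centring Tcf7 was still lower, Hes6 (0.53) and Il2ra (0.56) were called higher, and Hes7 and Nrarp were above 0 without a call.

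**Figure D4:**
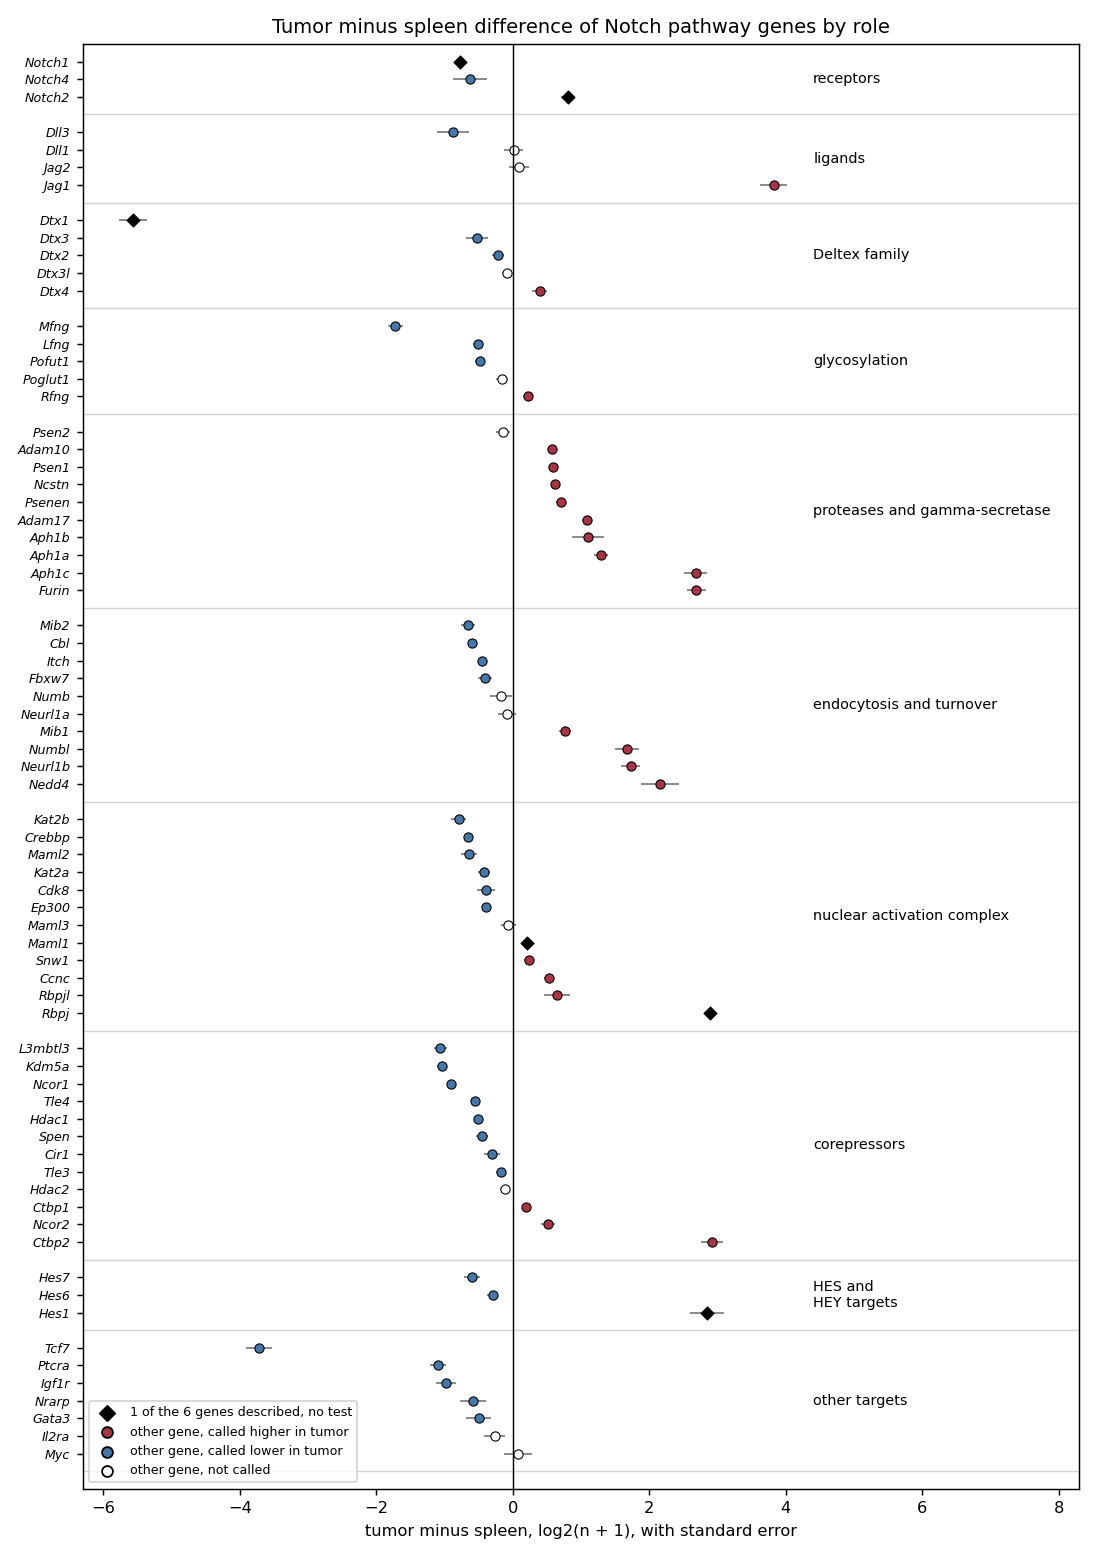
Tumor minus spleen difference in log2(n + 1) (horizontal axis) with its standard error for the 6 genes (diamonds) and the 65 other tested pathway genes (circles), grouped by role. Red and blue circles were called higher and lower by limma, open circles were not called, and as deposited 9 of the 10 protease and gamma-secretase genes are red while Dtx1 is far to the left of all others.

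The genotype asks whether deletion of Cd177 in Tregs, with the Cre transgene, goes with another level of these genes. No difference was called for any of the 6 genes in spleen, in tumor or in the interaction of tissue and genotype (limma with Benjamini-Hochberg adjustment, all adjusted p at least 0.9997). Over all tested genes 0%, 0.00720% and 0% were called, 1 gene in all, in tumor. That gene, Gm45837, is named here after its values were seen, and it was 2.44 in WT and 0.57 in KO tumor (adjusted p = 0.040). An unadjusted p under 0.05 was reached by 281 genes in spleen, 634 in tumor and 383 in the interaction, and by 1 of the 6 genes, Hes1 in tumor.

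In spleen the KO minus WT differences of the 6 genes lay between -0.12 and 0.049. In tumor the Dtx1 mean was 1.21 ± 0.23 (SD, n = 3) in WT and 1.67 ± 0.97 (SD, n = 2) in KO, a difference of 0.46 (95% confidence interval -0.23 to 1.14). It rests on KO replicate 1, and without that library it was -0.23. Hes1 was 4.38 ± 0.41 (SD, n = 3) in WT and 3.59 ± 0.63 (SD, n = 2) in KO tumor, with overlapping libraries and a difference of -0.79 (95% confidence interval -1.52 to -0.054, unadjusted p = 0.038 and adjusted p = 0.9997 by limma). It was -0.35 without KO replicate 1 and -1.23 without KO replicate 2. Notch1 in tumor differed by -0.29 (95% confidence interval -0.59 to 0.013). For Notch2, Rbpj and Maml1 the tumor differences were -0.080, -0.041 and 0.027, and their intervals reached at most 0.42 from 0.

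The tumor minus spleen difference of Dtx1 was -5.80 in WT and -5.23 in KO mice, with an interaction of 0.57 (95% confidence interval -0.35 to 1.495). That of Hes1 was 3.18 in WT and 2.34 in KO mice (interaction -0.84, 95% confidence interval -1.82 to 0.15), and the interaction was -0.39 without tumor KO replicate 1 and -1.28 without tumor KO replicate 2. With 2 KO tumor libraries these intervals leave room for sizeable differences in Dtx1 and Hes1. Of the 65 other pathway genes none was called by genotype, and 1, 4 and 3 had an unadjusted p under 0.05 in spleen, tumor and the interaction.

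**Figure D5:**
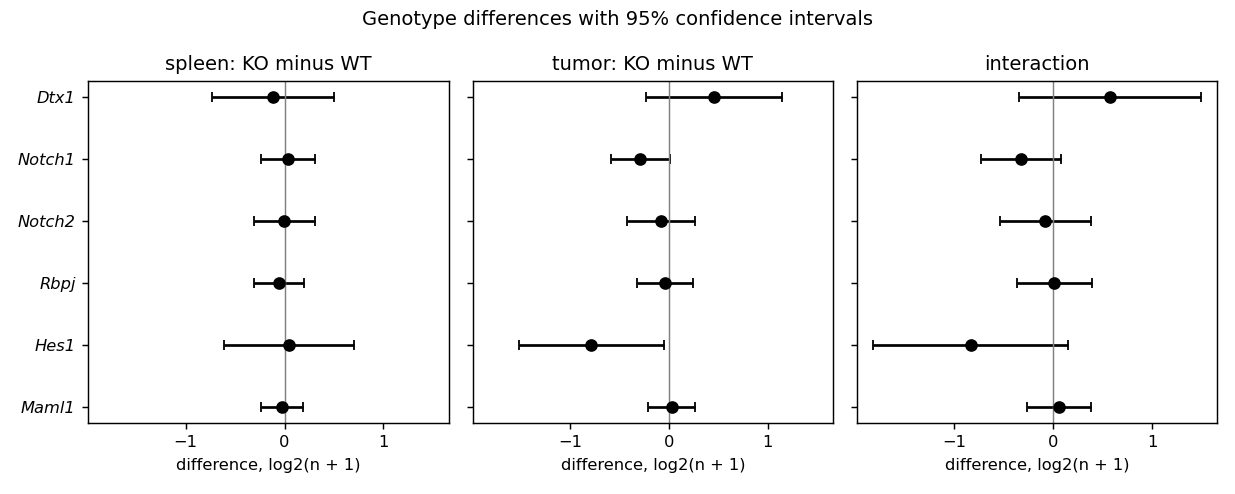
KO minus WT difference in spleen, in tumor, and their interaction, in log2(n + 1) (horizontal axes) for the 6 genes, with 95% confidence intervals from limma. The intervals are widest for Dtx1 and Hes1, and that of Hes1 in tumor, from -1.52 to -0.054, alone excludes 0.

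The genes whose levels followed Dtx1 most closely over the 11 libraries were Trim39 and Bach2 (Pearson's r = 0.997 for both), St6gal1, Rbm38 and Tmc6 (r = 0.996 each). Bach2, a transcriptional repressor that restrains effector differentiation of T cells, went from 6.36 to 2.83. Such likeness was not particular to these genes, as 148 of the other 13896 tested genes had r above 0.99 and 346 had r below -0.99. These correlations include the tissue contrast on which Dtx1 was selected. With the tissue mean of each gene subtracted, Znrf1 (r = 0.961), Epha5, Madd, 6430571L13Rik and Unc45a (r = 0.913) came first. They are the highest of 13896 genes, and how many others came near such values was not counted. Among the other 5 genes, r after this subtraction was -0.74 for Hes1 and between -0.27 and 0.30 for Notch1, Notch2, Rbpj and Maml1. These are descriptions over 11 libraries that share tissue and scaling, and KO tumor replicate 1, with the highest Dtx1 and the lowest Hes1 tumor level, enters each of them.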

How the data were processed

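RNA of Tregs from tumors and spleens was measured in 11 libraries, whose labels gave tissue and genotype. After ribosomal depletion the authors pseudoaligned single-end reads to mm10 by kallisto, passed the estimated counts through sleuth 0.30.0 (version per the submitters' processing notes), added them up per gene symbol and deposited 14604 genes as log2(n + 1). A version of kallisto is not given in the sources used here. Totals of n were 712832 to 844331 in spleen and 1103159 to 1304548 in tumor, and the pseudogene Gm12896 held 31.4% to 42.4% of n. The methods give an approximate sequencing depth, but how n relates to reads is not stated, so no counting interval can be had and precision is set by the spread between libraries.

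The deposited log2 values were used without further scaling. Tests covered the 13897 genes whose mean was 0.5 or more and left out 707. limma 3.58.1 in R 4.3.3 (lmFit, eBayes with trend) compared 5 tumor with 6 spleen libraries, genotypes pooled, and a model with 1 mean per group gave the genotype contrasts and interaction. A gene was called at an adjusted p below 0.05 (Benjamini-Hochberg, all tested genes). Standard errors and confidence intervals came from the same fits. The code was tested on simulated data.

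The 6 genes and the pathway and marker lists were chosen with earlier results of these data known. The genes named are these 6, the 3 next falls, the 5 genes most like Dtx1 by each of 2 correlations, and genes of those lists. Positions and shared 31-base stretches came from GENCODE M21, promoters from the RefSeq table, which held 5 of the 6 genes. The promoter of Hes1 was therefore not searched. Alternatives changed the scaling, pseudocount (0.1 or 5), filter, variance model, correction, covariates, replicate block and libraries.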

Additional observations from a re-analysis of the deposited data

Results flagged for a closer look

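Of 88 groups of 5 or 6 libraries examined, 2 had a library far from the others by Dixon's test, where chance alone gives about 4.4, and both are marker sums of other cell types in spleen. The summed level of the endothelial list was 6.32 in KO replicate 1 and 5.99 to 6.09 in the other spleen libraries. The summed level of the marginal zone B cell list, some of whose genes other cells also express, was 7.13 in KO replicate 2 and 6.68 to 6.75 in the others. That library had the lowest Dtx1 level of the spleen libraries, 6.72. None of the 6 genes had such a library in either tissue.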

How the results depend on the processing

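There were 28 alternative fits of tumor against spleen, and the genotype differences within a tissue were also fitted with the libraries of that tissue alone. Of the 29 pathway genes named beside the 6, 10 kept direction and call in every alternative fit that tested them. These were Adam17, Aph1a, Aph1c, Ctbp2, Furin, Jag1, Mfng, Neurl1b, Numbl and Tcf7. Apart from the scalings and Bonferroni, 21 did. Genes below the raised minimum mean, Neurl1b among them, were not tested in that fit. Dtx1 in tumor against spleen was -6.05 with equal library totals, with or without Gm12896 (a choice made after seeing the data), -4.73 with T-cell lineage centring, -6.22 with a pseudocount of 0.1 and -4.25 with 5. Maml1 was -0.034 with quantile normalization, -0.019 with median centring, and -0.39 with equal totals, with or without Gm12896. With equal totals Adam10 was -0.049 (-0.045 without Gm12896) and Dtx4 -0.14 (-0.13). T-cell lineage centring turned Notch1 to 0.061, Notch4 to 0.20, Dtx2 to 0.61, Dtx3 to 0.30, Dtx3l to 0.75, Hes6 to 0.53, Hes7 to 0.23, Kat2b to 0.038, Maml2 to 0.19, Nrarp to 0.25 and Il2ra to 0.56, and in knockout libraries alone Il2ra was 0.048. Of the 65 other pathway genes, 11 were higher with equal totals (11 without Gm12896), 38 with T-cell lineage centring and 13 with Bonferroni correction, and 2 and 10 were lower under the last 2. Leaving out 1 library gave 22 higher throughout and 28 to 31 lower. The genotype difference of Dtx1 in tumor was -0.23 to 1.14 and its interaction -0.11 to 1.26 with single libraries left out, the lowest without tumor KO replicate 1. That of Hes1 in spleen was -0.11 to 0.26. Without spleen KO replicate 2 and tumor KO replicate 1 together, chosen after seeing the data, these were -0.23, -0.20 and -0.094. Where no construction of the alternative shows it, the cause was not tested. No genotype difference of the 6 genes was called under any alternative. The replicate numbers showed no pairing of the libraries (correlations of same-numbered deviations -0.13 to 0.038, 0 of 5 above 0.1). Deviations within groups this small are tied to each other, so this cannot show that the libraries are unpaired. With the replicate block Dtx1 was -5.57, and 21 pathway genes were higher and 29 lower. Without spleen KO replicate 2 and tumor KO replicate 1 these counts were 22 and 29. In fits of 1 genotype alone, which hold fewer libraries, the calls of Dll3, Dtx2, Dtx3, Dtx4, Hes6, Notch4 and Nrarp were lost in at least 1 genotype. Since the relation of n to reads is not stated, low levels, such as Dtx1 in tumor and Hes1 in spleen, have no counting error here.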
